A study of Mus musculus with 4 samples.

Results

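The genes described here are 32 members and targets of the p53 pathway, measured in primary mouse embryonic fibroblasts with and without RBP2. They were chosen by name, as p53 itself, its regulators and well-known target genes, and were sorted by role into feedback, arrest, death and repair genes. A gene was represented by the probe set, a group of short array probes meant to read 1 transcript, that carried its symbol alone and had the highest mean signal over the 4 arrays. Of the 32 genes, 30 had such a probe set, and 29 of these passed the filter on dim signal, which left 27022 probe sets covering 13097 of 18193 named genes. No probe set used here carried the symbol of Trp53 or Bax alone, so these genes were not analysed here. Plk3 had a probe set that was too dim to be kept.

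RNA came from 4 lines of embryonic fibroblasts at passage 3, which are connective tissue cells grown directly from embryos. Wild-type lines 1 and 2 were compared with RBP2-/- lines 1 and 2, called RBP2-null below, with 1 Affymetrix array per line. RBP2, now named Kdm5a, takes methyl groups off lysine 4 of histone H3, and the question addressed is whether transcripts change in level when it is lost. The lines are described as independent, but the sources used here do not give mouse strain, embryo age or the deleted part of the gene. No treatment that damages DNA is named for any line.

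The transcription factor p53, encoded by Trp53, is held at a low level by the ubiquitin ligase Mdm2 and its relative Mdm4. Stress such as DNA damage or prolonged culture relieves that hold, and p53 then binds DNA as a tetramer and activates genes that halt the cell cycle, start cell death or repair DNA. Several targets, Mdm2 among them, act back on p53. Embryonic fibroblasts are a standard cell for this pathway, because growth in plastic dishes gradually raises p53 activity in them.

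Sequences upstream of the annotated starts were set beside the expression values, since the members are linked by a DNA-binding factor. RefSeq promoter entries (build GRCm38.p6) were held for 24 of the 32 genes, with 31 starts, some of which overlap within a gene. The 250 bases before each start were searched for the p53 half-site consensus of 10 bases, which reads the same on both strands, so that 1 search covers both. A match was found before 10 of the 31 starts, or 32.3%, against 7.13% of the 32851 starts in the table. A pair of matches at most 13 bases apart occurred before 1 member start, an upstream start of Cdkn1a, and before 21 starts in the whole table, or 0.0639%. The 250 bases before that Cdkn1a start (chr17:29090729-29090978, plus strand) are shown because they alone among the members hold a pair, and capitals mark the matches. The other Cdkn1a start in the table lies 2790 bases downstream and had no match.
Cdkn1a: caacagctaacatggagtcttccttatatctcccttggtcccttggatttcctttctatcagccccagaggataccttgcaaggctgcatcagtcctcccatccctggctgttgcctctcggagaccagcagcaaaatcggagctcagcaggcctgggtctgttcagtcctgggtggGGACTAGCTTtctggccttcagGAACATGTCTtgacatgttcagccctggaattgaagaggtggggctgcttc

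The matches of the other 9 genes are shown with up to 10 bases on either side, capitals marking the match, so that their letters can be compared. That of Ei24 ends at the base before its start.
Gadd45a (chr6:67037428-67037457, minus strand): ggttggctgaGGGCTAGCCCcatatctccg
Sesn1 (chr10:41887256-41887285, plus strand): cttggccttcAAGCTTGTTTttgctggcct
Aen (chr7:78895927-78895956, plus strand): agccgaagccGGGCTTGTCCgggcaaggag
Bax (chr7:45467080-45467109, minus strand): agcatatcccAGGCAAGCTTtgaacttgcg
Ei24 (chr9:36797335-36797354, minus strand): cgtgcggcccGGGCATGCCC
Ccng1 (chr11:40755452-40755481, minus strand): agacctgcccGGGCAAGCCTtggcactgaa
Mdm2 (chr10:117710925-117710954, minus strand): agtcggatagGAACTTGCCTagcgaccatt
Trp53 (chr11:69580274-69580303, plus strand): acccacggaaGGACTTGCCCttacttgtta
Polk (chr13:96519399-96519428, minus strand): catgtagcttGAACTAGCCTcaaacttatt

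Fas, which had the largest difference by genotype among the members, had no match in the 250 bases before its start (chr19:34290409-34290658, plus strand), which are printed for comparison. A match is a description of letters and not a site of binding, and no match says only that these letters are not in this window.
Fas: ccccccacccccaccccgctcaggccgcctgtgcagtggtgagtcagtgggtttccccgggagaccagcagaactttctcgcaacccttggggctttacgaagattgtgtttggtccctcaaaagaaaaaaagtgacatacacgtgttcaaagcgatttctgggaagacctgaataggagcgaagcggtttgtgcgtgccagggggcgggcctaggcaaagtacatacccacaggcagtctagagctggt

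Of the genes with a match, 8 had an expression value, with a median log2 difference of 0.16 and a range from -0.19 to 0.40. The 13 genes with an entry and a value but no match had a median of 0.25 and a range from -0.19 to 1.58. The range of the genes with a match lay within that of the genes without.

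Signal values below are normalized log2(signal + 9), and a difference is RBP2-null minus wild type on that scale, which understates the change of dim genes. Before normalization the median signal was 21.5 to 43.7 per array. Wild-type line 1 stood apart, with a correlation across probe sets of 0.927 to 0.928 with the other arrays, against 0.948 to 0.965 among these. Each genotype has 2 lines, so p-values cover no more than the spread among these lines, and an exact permutation test could not go below 0.333. Kdm5a, the targeted gene, had 6.72 and 7.65 in the wild-type lines against 6.40 and 6.49 in the RBP2-null lines on its brightest probe set. Its other kept probe sets had differences of -1.24, -0.25, 0.24 and 0.15. Since the deleted part is not known here, these probe sets may not check the labels. All 12 fibroblast markers were kept, and their summed normalized signal was 29750 and 34640 in wild type and 30350 and 33350 in RBP2-null cells. Wild-type line 1 was the lowest in several dimmer ones, with normalized signals of Pdgfra of 43.7 against 479 in wild-type line 2 and 168 and 448 in the RBP2-null lines. The median difference of the fibroblast markers was 0.12, and -0.19 without that line. The part of this marker difference in the results below was not tested.

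No member passed the threshold of an adjusted p of 0.05 in limma, where 1 of 27022 probe sets, or 0.0037%, did. At an unadjusted limma p under 0.05 there was 1 member, Fas, of 29, against 2.98% of all probe sets, or 1.56% in its direction. Fas passed the filter, a mean of 4.76 over the 4 arrays, only through the genotype where it is higher, so its count is no support. No member was lower at that p, against 1.42% of all probe sets. More members had estimates above 0 than below, with 22 of 29 above and 7 below and a median of 0.17, beside a median of 0.0031 and 50.4% above 0 over all probe sets. Without the filter on dim signal, 23 of 30 were above 0, with a median of 0.16. The count above 0 was 27 of 29 with median-centred arrays and 28 of 29 without scaling, where the median over all probe sets was itself 0.18 and 0.38. Both RBP2-null lines lay above both wild-type lines for 8 members, or 27.6%, against 14.6% of all probe sets. Both lay below for 1 member, or 3.45%, against 14.9%. These counts describe genes of 1 pathway in the same 4 arrays and carry no test.

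The balance of the members above 0 depended on wild-type line 1. With that array left out, 15 of 29 members were above 0 and the median was 0.010, beside -0.0093 over all probe sets. Leaving out wild-type line 2, RBP2-null line 1 or RBP2-null line 2 gave 21, 18 and 23 members above 0, with medians of 0.22, 0.13 and 0.33. Wild-type line 1 had the lowest value of the 4 arrays for 13 of the 29 members, or 44.8%, against 31.3% of all probe sets. It had the highest value for 4 of the 29, against 31.4% of all probe sets.

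**Figure D1:**
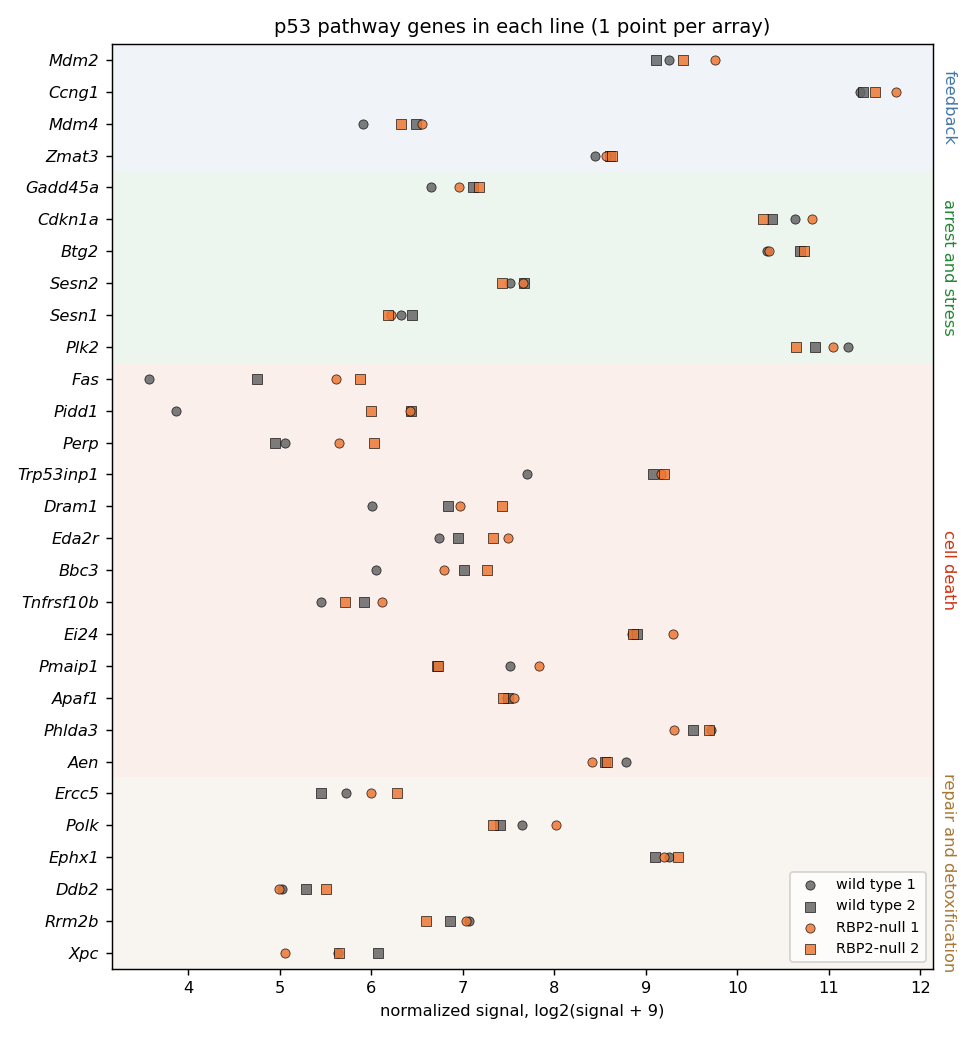
Normalized signal of the 29 kept p53 pathway genes, log2(signal + 9), with 1 point per array. Grey points are wild-type lines and orange points RBP2-null lines, circles are lines numbered 1 and squares lines numbered 2. Fas, Perp, Eda2r and Dram1 have both orange points to the right of both grey ones, while for Cdkn1a and Plk2 the squares lie to the left of the circles.

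The feedback genes act on p53 or on its messenger RNA, and all 4 that were measured had estimates above 0, with a median of 0.26 and 0 past the threshold. Without wild-type line 1, 2 of the 4 feedback genes were above 0 and their median was 0.12. Mdm2, the ligase that marks p53 for destruction, had 9.25 and 9.11 in wild type against 9.76 and 9.40 in RBP2-null cells. Both RBP2-null lines were thus above both wild-type lines, and RBP2-null line 1 was the highest. The mean was 9.18 ± 0.10 (SD, n = 2) for wild type against 9.58 ± 0.25 (SD, n = 2) for RBP2-null cells. The difference for Mdm2 was 0.40, or 1.32-fold, with a standard error of 0.21 and 95% limits of -0.080 and 0.89. Its unadjusted limma p was 0.0910. Leaving out RBP2-null line 1 brought the difference to 0.22. The other Mdm2 probe sets had differences of 0.13 and 0.14.

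Ccng1, a cyclin that recruits a phosphatase to Mdm2, was the brightest member at 11.34 and 11.37 in wild type and 11.73 and 11.50 in RBP2-null cells. The groups did not overlap, and the difference of 0.26 had a 95% interval from -0.12 to 0.64. Its other kept probe sets, nearly as bright, had differences of -0.080 and 0.063, so the probe sets did not share a direction.

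Mdm4 binds p53 and blocks its activity. Its brightest probe set had 5.91 and 6.48 in wild type and 6.56 and 6.33 in RBP2-null cells, so that the groups overlapped. The difference of 0.25 for that Mdm4 probe set became -0.042 without wild-type line 1. The dimmest of its probe sets had 5.69 and 5.51 in the wild-type lines against 4.17 and 4.07 in the RBP2-null lines. On that Mdm4 probe set both RBP2-null lines were far below both wild-type lines, with a difference of -1.48, a standard error of 0.43 and 95% limits of -2.46 and -0.50. Its unadjusted limma p was 0.00806 and its adjusted p 1, and the remaining Mdm4 probe sets had -0.084 and 0.020. The RBP2-null mean on this probe set, 4.12, lay under the filter level of 4.76, so it was kept only through the wild-type lines and its p is no support. It was singled out after its values were seen, and the sources used here do not say which part of the transcript it reads. Zmat3, an RNA-binding protein that stabilizes the p53 message, had 8.45 and 8.60 in wild type and 8.56 and 8.63 in RBP2-null cells, with a difference of 0.071.

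The arrest and stress genes slow the cell cycle or restrain growth signals, and they split evenly, with 3 of 6 kept members above 0, 3 below and a median of -0.0097. None of these passed the threshold or had an unadjusted limma p under 0.05, the smallest being 0.390. Cdkn1a encodes the CDK inhibitor p21, the main arm of p53-driven arrest. Cdkn1a had 10.63 and 10.38 in the wild-type lines against 10.82 and 10.28 in the RBP2-null lines. The highest and the lowest value both came from RBP2-null lines. The means for Cdkn1a were 10.51 ± 0.18 (SD, n = 2) for wild type against 10.55 ± 0.38 (SD, n = 2) for RBP2-null cells. The difference was 0.044 with a standard error of 0.22 and 95% limits of -0.46 and 0.55. It turned to -0.22 without RBP2-null line 1 and to -0.085 without wild-type line 2, and another Cdkn1a probe set had 0.23.

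Plk2, a polo-like kinase induced by stress, was among the brightest members with 11.21 and 10.85 in wild type and 11.04 and 10.63 in RBP2-null cells. Its difference of -0.19 was smaller than the gap between the lines of either genotype. The sestrins, which dampen the growth kinase mTORC1 and oxidative stress, are represented by Sesn1 and Sesn2. Sesn1 was the only kept member with both RBP2-null lines below both wild-type lines, at 6.32 and 6.45 against 6.21 and 6.18. Another of its probe sets ran the other way, with 5.11 and 5.61 in wild type and 5.93 and 6.72 in RBP2-null cells. On that second Sesn1 probe set the difference was 0.97 with a standard error of 0.39, an unadjusted limma p of 0.0352 and an adjusted p of 1. The brightest Sesn1 probe set had -0.19, so the direction of Sesn1 rests on the probe set chosen.

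Sesn2 had 7.52 and 7.66 in wild type and 7.66 and 7.42 in RBP2-null cells, a difference of -0.049, with the groups interleaved. Gadd45a, a stress sensor that inhibits the mitotic kinase Cdk1, had 6.65 and 7.12 in wild type and 6.95 and 7.18 in RBP2-null cells. Its difference of 0.18 became -0.050 without wild-type line 1. Btg2, an antiproliferative gene, had a difference of 0.030, and both of its lines numbered 2 were above both numbered 1. With median-centred arrays Plk2 and Sesn2 turned to 0.12 and 0.20, where the median over all probe sets was itself 0.18. Without scaling Plk2, Sesn1 and Sesn2 turned to 0.32, 0.15 and 0.40, beside a median over all probe sets of 0.38.

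**Figure D2:**
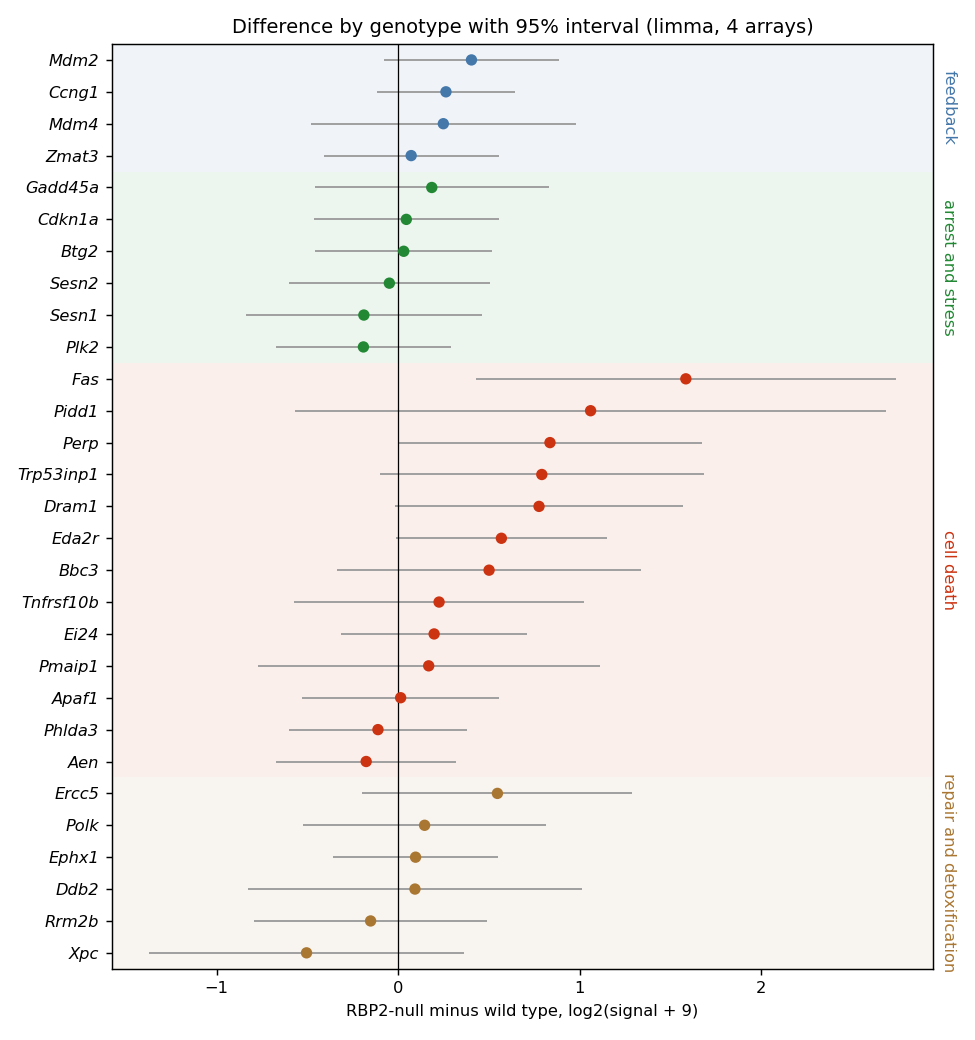
Difference between RBP2-null and wild-type cells, log2(signal + 9), for each kept member with its 95% interval from limma, grouped by role. The interval of Fas, from 0.43 to 2.74, is the only one that does not reach 0, and intervals of dim genes are wide.

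The death genes held the largest differences, with 11 of 13 measured members above 0, 2 below, a median of 0.50 and 0 past the threshold. Without wild-type line 1 the death genes had 9 of 13 above 0 and a median of 0.10. Fas, the cell-surface receptor that starts the extrinsic death pathway when its ligand binds, had 3.57 and 4.75 in the wild-type lines against 5.61 and 5.88 in the RBP2-null lines. All of these are low values, and both RBP2-null lines were above both wild-type lines. As deposited, the Fas signal was 2.5 and 18.1 in wild type and 29.1 and 76.9 in RBP2-null cells. The means were 4.16 ± 0.83 (SD, n = 2) and 5.74 ± 0.19 (SD, n = 2), the former under the filter level of 4.76. The difference for Fas was 1.58, or 3.00-fold, with a standard error of 0.51 and 95% limits of 0.43 and 2.74. Its unadjusted limma p was 0.0131 and its adjusted p 1. The size of the Fas difference moved with the processing, at 2.41 with a pseudocount of 1, 0.88 with a pseudocount of 32 and 1.04 without wild-type line 1.

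Perp, a membrane protein of desmosomes that also takes part in p53-dependent death, had 5.06 and 4.94 in wild type and 5.65 and 6.03 in RBP2-null cells. The groups did not overlap, and the wild-type lines lay close together. The difference for Perp was 0.84, or 1.78-fold, with a standard error of 0.37 and an unadjusted limma p of 0.0501. It was 0.93 without wild-type line 1 and 0.60 without RBP2-null line 2. Perp is abundant in epithelium, so the epithelial markers were read beside it. Of these 8 of 10 were kept. The summed normalized signal of all 10 was 905.7 and 709.5 in wild type and 597.4 and 726.8 in RBP2-null cells. Among the 8 kept epithelial markers 3 had differences above 0 and 5 below, with a median of -0.17. The keratin gene Krt18 was on the side of Perp, with normalized signals of 36.7 and 50.9 in wild type against 61.1 and 57.3 in RBP2-null cells. Krt5, Krt14 and Krt8 were lower in both RBP2-null lines, and Cdh1 was too dim to be kept. The epithelial sum of RBP2-null line 2 lay between those of the wild-type lines, and that of RBP2-null line 1 below both. Epcam alone gave 599 and 394 of it in wild type and 306 and 470 in RBP2-null cells. The part of epithelial cells in the Perp difference was not tested.

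Dram1, a lysosomal membrane protein linked to autophagy, had 6.01 and 6.83 in wild type and 6.96 and 7.43 in RBP2-null cells. Its difference of 0.78, or 1.71-fold, with a standard error of 0.35 and an unadjusted limma p of 0.0537, was 0.37 without wild-type line 1. Eda2r, a receptor of the tumour necrosis factor family, had 6.74 and 6.94 in wild type and 7.49 and 7.33 in RBP2-null cells. Here the lines of each genotype lay close together and the groups were apart. The Eda2r difference was 0.57, or 1.48-fold, with a standard error of 0.25 and an unadjusted limma p of 0.0547, and it ranged from 0.47 to 0.66 with each array left out in turn.

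For other death genes the value rested largely on wild-type line 1. Trp53inp1, a nuclear cofactor of p53 in stress and autophagy, had 7.70 in that line and 9.08, 9.16 and 9.20 in the other wild-type and the RBP2-null lines. Its difference of 0.79 fell to 0.10 without wild-type line 1, and its other probe set had -0.47. Pidd1, a scaffold that activates caspase-2, had a deposited signal of 4.5 in wild-type line 1, 79.1 in wild-type line 2 and 57.3 and 84.9 in the RBP2-null lines. The Pidd1 difference of 1.06, with a standard error of 0.71, became -0.24 without that line. Bbc3, the BH3-only protein Puma, had 6.05 in wild-type line 1, 7.01 in wild-type line 2 and 6.80 and 7.26 in the RBP2-null lines. Its difference of 0.50 was 0.022 without wild-type line 1 and 0.25 without RBP2-null line 2.

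Pmaip1, the BH3-only protein Noxa, differed by line number more than by genotype, with 7.52 and 6.72 in wild type and 7.84 and 6.73 in RBP2-null cells. Among the remaining death genes, Tnfrsf10b, the receptor of the death ligand Trail, had a difference of 0.22, and Ei24, an endoplasmic reticulum protein, had 0.20. Apaf1, the core of the apoptosome, had 0.013 and nearly equal values in all 4 lines, from 7.44 to 7.56. Phlda3, an inhibitor of Akt signalling, had -0.11, and the nuclease Aen had -0.18. Both turned above 0 with median-centred arrays and without scaling, where the median over all probe sets was itself 0.18 and 0.38. Of the 4 kept probe sets of Aen, the differences ran from -0.20 to 0.37, the highest being on a probe set kept only through the RBP2-null lines.

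Fas is also abundant in leukocytes, so their markers were read beside the death genes. Of the leukocyte markers 6 of 8 were kept. The summed normalized signal of all 8 was 781.4 and 597.8 in wild type and 479.6 and 500.8 in RBP2-null cells. This sum was lower in both RBP2-null lines, where Fas was higher. The part of leukocytes in the Fas difference was not tested. Ptprc, the defining leukocyte gene, was too dim to be kept. Its normalized signals were 15.5 and 10.9 in wild type and 4.50 and 2.88 in RBP2-null cells. In such bulk RNA, fewer cells of a type and less RNA per cell cannot be told apart.

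The repair and detoxification genes had 4 of 6 members above 0, 2 below and a median of 0.094, with none past the threshold. Ercc5, the nuclease Xpg of nucleotide excision repair, had 5.72 and 5.45 in wild type and 5.99 and 6.28 in RBP2-null cells. The groups did not overlap, and the difference of 0.55 had a standard error of 0.33 and 95% limits of -0.20 and 1.29. Xpc, which recognizes damaged bases at the start of the same repair pathway, lay on the other side of 0. Its values were 5.64 and 6.08 in wild type and 5.05 and 5.65 in RBP2-null cells, a difference of -0.51 with a standard error of 0.38. Leaving out RBP2-null line 1 brought it to -0.21. Ddb2, a further damage sensor of that pathway, had 0.092.

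Polk, a polymerase that copies past damaged bases, had 7.65 and 7.41 in wild type and 8.02 and 7.33 in RBP2-null cells. RBP2-null line 1 was the highest and RBP2-null line 2 the lowest, and without the former the difference of 0.14 became -0.20. Rrm2b, the ribonucleotide reductase subunit that supplies nucleotides for repair, had 7.07 and 6.86 in wild type and 7.03 and 6.59 in RBP2-null cells, a difference of -0.15. It turned to 0.067 with median-centred arrays and 0.27 without scaling, where the median over all probe sets was itself 0.18 and 0.38. Another Rrm2b probe set had 0.32. Ephx1, a detoxifying epoxide hydrolase, had 0.095 with the smallest standard error of the group, 0.20.

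Larger differences were found at lower signal, as they were over all probe sets. The 11 members with a mean of 8 or more had differences from -0.19 to 0.79 and a median size of 0.18, beside 0.13 over 5519 probe sets of that level. The 18 dimmer members ranged from -0.51 to 1.58 with a median size of 0.24, and the 21503 dimmer probe sets had a median size of 0.24. When probe sets were divided into 20 bins by level, 7 members lay above the 95th percentile of their bin and 0 below the 5th. These were Mdm2, Fas, Perp, Trp53inp1, Eda2r, Pidd1 and Dram1, of which Trp53inp1 and Pidd1 rest on wild-type line 1 as given above. Fas was kept only through the RBP2-null lines. Mdm2 had 0.40 against a 95th percentile of 0.38, and Dram1 had 0.37 without wild-type line 1.

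**Figure D3:**
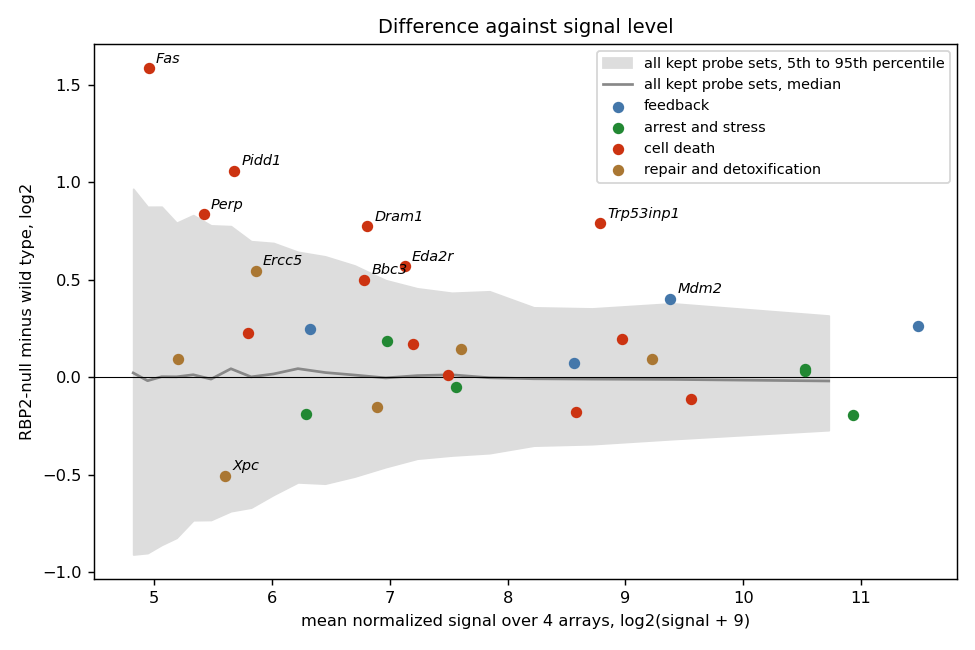
Difference by genotype against mean signal for the 29 kept members, coloured by role. The grey band spans the 5th to the 95th percentile of all kept probe sets in 20 level bins and narrows with signal, and 7 members lie above it.

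Most members with an estimate above 0 lost part of it without wild-type line 1. Leaving that array out turned the sign of 7 of 29 members and brought 8 more nearer to 0 by over 1.5 times. Without wild-type line 2 the sign turned for 3, without RBP2-null line 1 for 6 and without RBP2-null line 2 for 5. A further 3, 6 and 4 members came nearer to 0 to that extent. The 8 members with both RBP2-null lines above both wild-type lines ranged from 0.10 for Trp53inp1 to 1.04 for Fas without wild-type line 1. Their sign was fixed by that choice. Mdm2, Perp and Ercc5 had larger values without it, at 0.47, 0.93 and 0.72, while Eda2r and Ccng1 had 0.47 and 0.25. Sesn1, the member with both RBP2-null lines below, had -0.26.

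**Figure D4:**
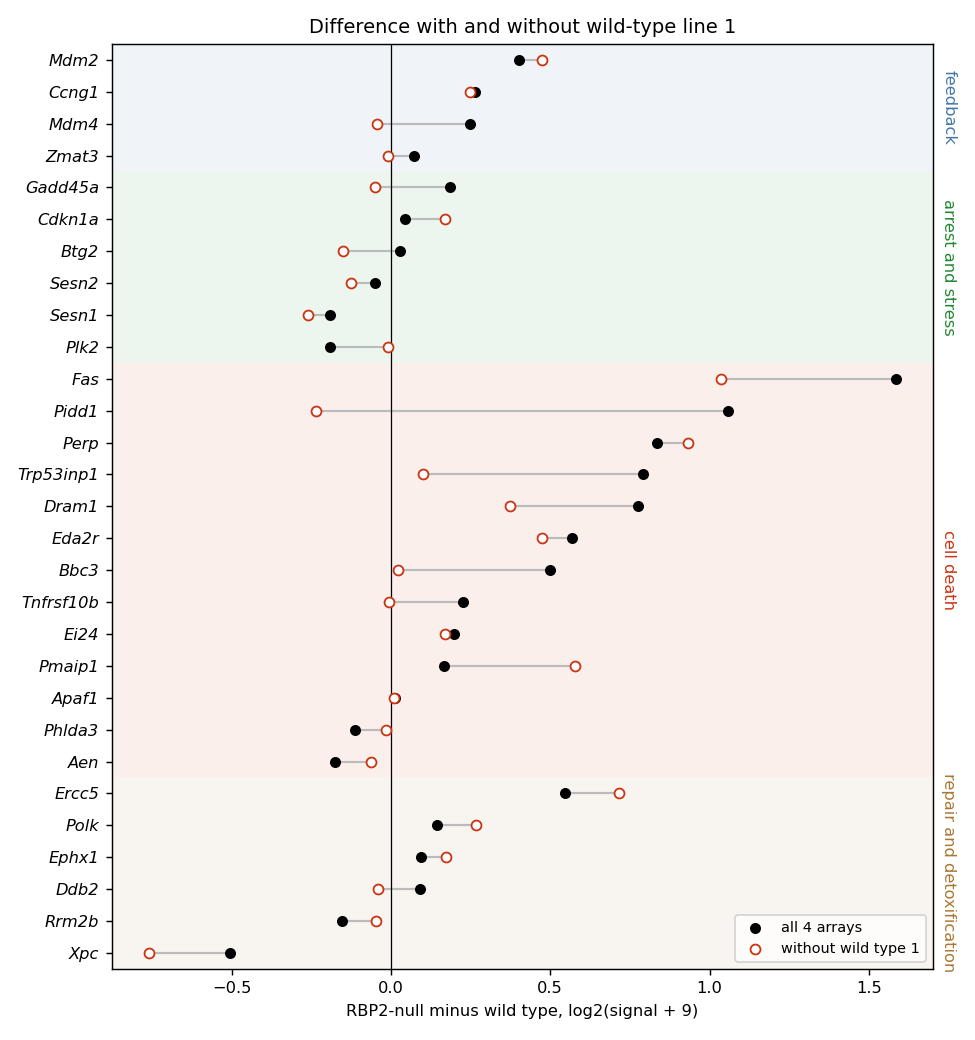
Difference by genotype with all 4 arrays (black) and without wild-type line 1 (open red), for each kept member. Trp53inp1, Pidd1 and Bbc3 move to near or past 0, and Fas, Perp, Eda2r and Mdm2 have 1.04, 0.93, 0.47 and 0.47 without that array.

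Lines of the same genotype also differed from each other, for the members as over all probe sets. Both lines numbered 2 lay below both numbered 1 for 5 of the 29, or 17.2%, against 20.7% of all probe sets. Both lay above for 6, or 20.7%, against 20.2%, so the members were near the shares over all probe sets. The lower ones were Cdkn1a, Plk2, Pmaip1, Rrm2b and Polk. Within wild type, line 2 minus line 1 was -0.25 for Cdkn1a and -0.80 for Pmaip1, and within RBP2-null cells it was -0.53 and -1.10. Zmat3, Btg2, Gadd45a, Bbc3, Xpc and Ddb2 were the higher ones, with Bbc3 at 0.95 and 0.47. Pmaip1 and Bbc3, which encode the related death proteins Noxa and Puma, thus lay on opposite sides. Nothing in the labels pairs lines by number.

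**Figure D5:**
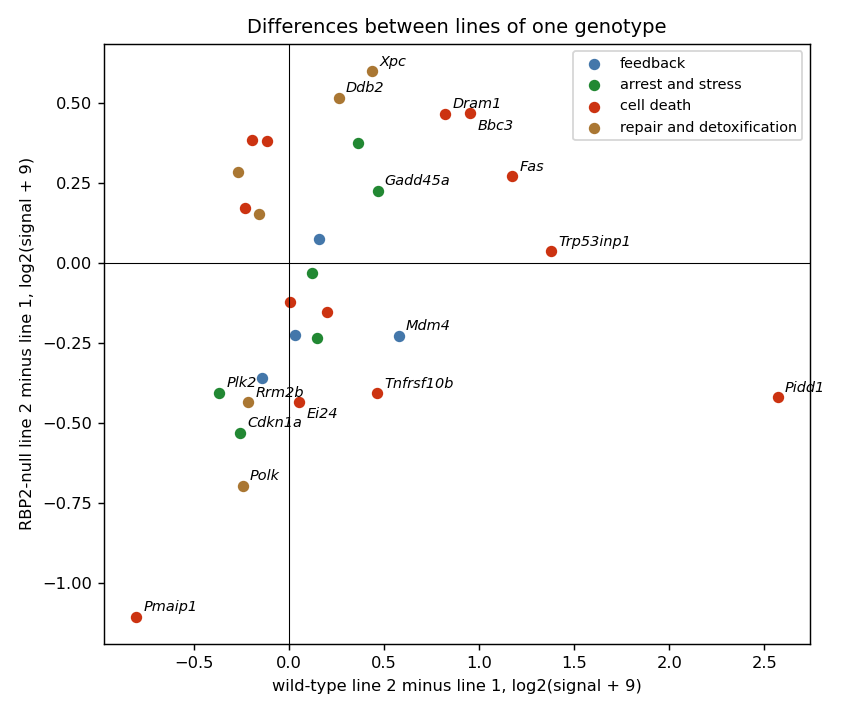
Line 2 minus line 1 within wild type (horizontal axis) and within RBP2-null cells (vertical axis), log2(signal + 9), 1 point per kept member. Pmaip1 lies far to the lower left, and Pidd1 lies far to the right, with 2.57 in wild type and -0.42 in RBP2-null cells.

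Several members were read by more than 1 probe set. Among the 15 members with more than 1 kept probe set, the direction differed between probe sets for 8. Over all 50 kept probe sets of the members, 36 were above 0 and 14 below.

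A further list of 43 genes of the pathway was read in the same way, covering p53 relatives, upstream kinases and cofactors, and other targets. Of these 38 were kept, with 18 above 0 and 20 below, a median of -0.013, 0 past the threshold in limma and 0 at an unadjusted p under 0.05. These counts take the brightest probe set of each gene. A dimmer one of the kinase gene Atm had -0.79 with an unadjusted limma p of 0.0291, beside -0.24 on its brightest. The 15 upstream genes had 7 above 0 and a median of -0.058, and the 23 further targets had 11 above 0 and a median of -0.0051. The further targets thus had about as many estimates above 0 as below.

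Cdkn2a, whose product Arf restrains Mdm2 as fibroblasts age in culture, had 6.14 and 6.28 in wild type and 6.39 and 6.12 in RBP2-null cells. Its difference was 0.043 with a 95% interval from -0.63 to 0.72. Trp63, a p53 relative of stratified epithelium, was dim, at 4.94 and 4.84 in wild type and 4.99 and 4.67 in RBP2-null cells. The smallest unadjusted p in this list, 0.0878 in limma, was that of Gadd45b, a stress gene related to Gadd45a. Gadd45b had 8.82 and 8.09 in wild type and 7.77 and 8.04 in RBP2-null cells, a difference of -0.55 that was -0.19 without wild-type line 1, and its other probe sets had 0.0051 and -0.60. Rprm, a mediator of arrest before mitosis, had 4.73 and 4.55 in wild type and 5.29 and 5.43 in RBP2-null cells, with a difference of 0.72. Its wild-type mean of 4.64 lay under the filter level, so that Rprm was kept only through the RBP2-null lines. Usp7, which removes ubiquitin from p53 and Mdm2, had 9.37 and 9.03 in wild type and 8.78 and 8.96 in RBP2-null cells on its brightest probe set. The Usp7 difference there was -0.33, and its other probe sets had from -0.11 to 1.18.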

How the data were processed

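Deposited values are linear intensities, 1 for each of 45101 probe sets on every array, and 64 of these are controls. The sources used here do not say how the authors made the deposited intensity values. Trimmed means (2% at each end) differed up to 2.46 times between arrays, so controls were left out and the values were quantile normalized. A pseudocount of 9 was added before log2, and the upper 60% of probe sets by mean were kept. The genotypes were compared in limma 3.58.1 (R 4.3.3), with a prior variance that depends on the mean. All tests were two-sided, with Benjamini-Hochberg adjustment over all 27022 kept probe sets, and the procedure was tested on simulated data. A platform annotation named 34945 probe sets with 1 symbol, 932 with several and 9160 with none, and symbols were updated through the RefSeq table of GRCm38.p6. Sequences are RefSeq entries of that build.

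The members and lists were chosen with earlier results of these data known. Genes given with every array's value were Cdkn1a, Mdm2 and, in each role group, the 4 with the smallest unadjusted p, then from the further list the 3 with the smallest p, Cdkn2a and Trp63. Trp53inp1, Pidd1, Bbc3, Pmaip1, Apaf1 and single dimmer probe sets were added after their values were seen. Alternatives covered the pseudocount, filter, scaling, variance model, probe set choice, threshold, replicate block and each array left out. Precision is limited by the number of arrays.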

Additional observations from a re-analysis of the deposited data

How the results depend on the processing

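The count of members past the threshold was 0 under every alternative run, including an adjusted p of 0.10, the replicate block and each array left out. The members' median of 0.17 was 0.38 with median-centred arrays and 0.58 without scaling, where the median over all probe sets was 0.18 and 0.38. It ran from 0.010 to 0.33 with an array left out, and the members above 0 from 15 to 23. The count over all probe sets, 1, was 2 with median-centred arrays, 49 with the replicate block, and 0 without the filter, without scaling, with 1 prior variance and with probe sets averaged per gene. It ran from 0 to 41 with an array left out. Replicate numbers were not taken as pairs, since the labels do not pair lines. Same-number deviations had a correlation of 0.113 across probe sets. Both lines numbered 2 lay above both numbered 1 for 20.2% of probe sets and below for 20.7%. For RBP2-null against wild type these shares were 14.6% and 14.9%. The smallest adjusted p of a member was 0.115 with the replicate block and 0.0521 without wild-type line 2. Members at an unadjusted limma p under 0.05, 1 in the main run, rose to 6 with the replicate block and 5 with median-centred arrays. Over all probe sets that count also rose, from 805 to 1772 and 936. Median-centred arrays turned 5 members, Plk2 (0.12), Rrm2b (0.067), Sesn2 (0.20), Aen and Phlda3. Having no scaling turned 6, Plk2 (0.32), Rrm2b (0.27), Sesn1 (0.15), Sesn2 (0.40), Aen and Phlda3, and also Trp63 (0.087) and Usp7 (0.19). Averaging probe sets turned 6, Mdm4 (-0.32), Rrm2b (0.086), Sesn1 (0.39), Sesn2 (0.044), Aen and Apaf1, and also Usp7 (0.12). The cause was not tested.

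With each array left out in turn, signs of the genes named by the rule turned within these ranges: Cdkn1a from -0.22 to 0.33, Cdkn2a from -0.090 to 0.17, Gadd45a from -0.050 to 0.41, Mdm4 from -0.042 to 0.53 and Plk2 from -0.38 to 0.013. Polk ran from -0.20 to 0.49, Rrm2b from -0.37 to 0.064, Sesn2 from -0.17 to 0.068, Trp63 from -0.23 to 0.097 and Zmat3 from -0.0079 to 0.15. The stricter filter, the upper 40% by mean signal, kept 25 members. It left no value for the dimmest ones, Fas, Ddb2, Perp and Xpc. Low signal limits the dim members, since no detection calls were used.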
